A study of Mus musculus with 12 samples.

Results

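The 42 genes described here are cell cycle and mitosis genes, taken by symbol from the 18505 genes measured in mouse skin. Of these, 15 act mainly at the G1/S boundary or in S phase (called S phase members) and 27 act mainly in G2 or mitosis (called mitotic members). All 42 symbols were found, all were above 0 in each of the 12 samples, and all passed the filter on low values, a mean of at least 0.1 FPKM (fragments scaled to transcript length and to the total of the library), with 15288 genes in all. Their values ran from 0.278 FPKM for Cenpe in control replicate 3 to 132 FPKM for Pcna in control replicate 2.

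RNA-seq was done on skin of male wild-type BALB/c mice, 5 to 6 weeks old, shaved on the back and sampled on day 10, with 4 samples in each of 3 groups. The control group received petroleum jelly, and the study's methods name no saline, gauze or film for it. The IMQ + NS group received imiquimod (IMQ) cream, an immune activator that gives psoriasis-like lesions, for 6 h and then saline (NS) under gauze and film. The IMQ + BZLF group received the same cream and then Banzhilian formula (BZLF), a herbal preparation, in place of the saline. Treatments began on the first day and were repeated daily for 10 days. Both treated groups carry IMQ, and no group received BZLF without IMQ. Both were also covered, so against the controls, IMQ and the covering cannot be told apart. The dose of BZLF behind the sequenced samples is not given in the sources used here. The labels number the samples but do not say that each came from a separate mouse, so p-values measure the spread between these samples.

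A dividing cell copies its DNA in S phase and separates the copies in mitosis. Origins of replication are licensed in G1 by Cdc6 and Cdt1, which load the ring-shaped helicase made of Mcm2 to Mcm7, and cyclin E with its kinase then starts replication, while E2f1 is one of the transcription factors that turn these genes on. Later, cyclins A and B with Cdk1 drive entry into mitosis, Aurora and Polo kinases build the spindle, the checkpoint proteins Bub1, Bub1b and Ttk hold the cell until every chromosome is attached, and Cdc20 and Ube2c direct the destruction of the cyclins. In skin, dividing cells are found in the basal layer of the epidermis and, in growing hair follicles, in the matrix at the base of the hair. A thickened epidermis with many dividing keratinocytes is a mark of psoriasis.

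Genes of the 2 sets are known to carry different promoter elements, so the start-site windows of members with each kind are shown first. In RefSeq windows of 250 bases before and 50 after a transcript's start (GRCm38.p6), 35 of the 42 members had an entry, giving 23 windows for mitotic and 14 for S phase members. Capitals mark 3 motifs searched on both strands: the CCAAT box (CCAAT), the cell cycle homology region or CHR (TTTGAA), and the E2F motif, searched in its forms TTGGCGC and, with another core, TTCCCGC. When read on the other strand, the CCAAT box can share letters with an E2F motif. The first 4 windows, each 5′ to 3′ on the strand of its gene, belong to mitotic members: Ccnb2 (chr9:70421505-70421804, minus strand), Top2a (chr11:99024140-99024439, minus strand), Plk1 (chr7:122159185-122159484, plus strand) and Mki67 (chr7:135716330-135716629, minus strand). The last 2 belong to S phase members: Mcm5 (chr8:75109259-75109558, plus strand) and Mcm6 (chr1:128359656-128359955, minus strand).
Ccnb2: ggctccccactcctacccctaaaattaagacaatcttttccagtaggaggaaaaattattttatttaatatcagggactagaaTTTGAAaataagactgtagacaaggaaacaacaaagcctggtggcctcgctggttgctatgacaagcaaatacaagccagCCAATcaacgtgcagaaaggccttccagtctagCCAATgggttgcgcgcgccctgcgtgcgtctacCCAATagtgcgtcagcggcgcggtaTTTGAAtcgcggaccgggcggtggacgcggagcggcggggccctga
Top2a: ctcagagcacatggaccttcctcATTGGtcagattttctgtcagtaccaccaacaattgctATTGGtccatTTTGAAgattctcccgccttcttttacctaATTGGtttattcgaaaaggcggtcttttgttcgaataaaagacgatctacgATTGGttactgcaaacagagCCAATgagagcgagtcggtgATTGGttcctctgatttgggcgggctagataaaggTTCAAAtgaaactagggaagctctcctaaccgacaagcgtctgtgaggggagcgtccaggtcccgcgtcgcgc
Plk1: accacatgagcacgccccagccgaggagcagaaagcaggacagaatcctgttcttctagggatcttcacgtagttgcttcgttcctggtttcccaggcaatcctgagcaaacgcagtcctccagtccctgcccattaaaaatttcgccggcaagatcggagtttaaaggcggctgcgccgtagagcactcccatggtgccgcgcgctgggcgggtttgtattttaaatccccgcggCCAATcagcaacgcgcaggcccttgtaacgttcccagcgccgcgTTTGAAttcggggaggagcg
Mki67: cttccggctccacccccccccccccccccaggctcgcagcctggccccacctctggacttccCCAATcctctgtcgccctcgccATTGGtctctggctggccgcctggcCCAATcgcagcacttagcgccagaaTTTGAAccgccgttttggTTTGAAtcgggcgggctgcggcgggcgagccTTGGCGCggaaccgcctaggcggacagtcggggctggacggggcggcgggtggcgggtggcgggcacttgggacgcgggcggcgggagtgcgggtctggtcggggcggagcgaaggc
Mcm5: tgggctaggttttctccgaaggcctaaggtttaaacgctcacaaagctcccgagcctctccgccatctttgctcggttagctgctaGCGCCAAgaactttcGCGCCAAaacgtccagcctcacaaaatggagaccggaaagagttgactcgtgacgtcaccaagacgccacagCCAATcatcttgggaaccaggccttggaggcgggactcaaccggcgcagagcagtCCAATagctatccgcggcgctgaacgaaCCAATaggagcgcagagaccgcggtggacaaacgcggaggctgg
Mcm6: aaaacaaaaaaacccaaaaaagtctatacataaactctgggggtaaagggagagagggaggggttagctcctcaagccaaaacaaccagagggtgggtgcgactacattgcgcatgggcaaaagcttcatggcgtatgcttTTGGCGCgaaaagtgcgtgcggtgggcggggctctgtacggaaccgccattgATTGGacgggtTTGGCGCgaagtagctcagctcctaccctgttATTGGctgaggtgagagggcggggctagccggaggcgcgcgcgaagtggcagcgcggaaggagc

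The CHR motif stood in 17 of the 23 mitotic windows (73.9%) and in 1 of the 14 S phase windows (7.14%), that of Mcm2, beside 17.9% of all 32851 windows. The E2F motif was placed the other way, in 8 of 14 S phase windows (57.1%) and 3 of 23 mitotic windows (13.0%), those of Ccnb1, Cdk1 and Mki67, beside 6.81% of all windows. CCAAT boxes were common to both, in 82.6% of mitotic and 64.3% of S phase windows beside 37.4% of all. A CCAAT box and a CHR motif stood together in 69.6% of mitotic windows, 7.14% of S phase windows and 6.95% of all windows. Among S phase members, the windows of E2f1, Ccne1 and Tyms held none of the 3 motifs, and among mitotic members those of Birc5, Melk and Nusap1. In 5 of the 37 windows, 1 each of Aurka, Cdc6, E2f1, Kif2c and Mcm7, the start site lay more than 250 bases inside the annotated gene. A match is a description of letters in a window, not a site in use. Foxm1, Kif20a, Ccna2, Tpx2, Ccne2, Aurkb and Mcm4 had no entry.

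Before the comparisons, control replicate 2 has to be set apart from the other controls. Its correlation with them over all tested genes, on log2(FPKM + 0.1), was 0.949 to 0.961, while the other samples of a group correlated at 0.983 to 0.990. It correlated at 0.885 to 0.914 with the IMQ samples. FPKM over all genes summed to 444660 in it and to 454444 to 506622 in the others. The paper reports similar amounts of clean data for all samples. The number of reads behind each gene's value is unknown, so depth gives no interval here. Basal epidermal genes, led by Krt5 and Krt14, summed to 1023 to 5289 FPKM across the 12 samples, as skin would have them. Seminal vesicle genes, which skin should lack, summed to 37.8 FPKM in control replicate 2 and 37.2 FPKM in IMQ + BZLF replicate 2 and to at most 0.0441 FPKM in the other 10 samples. Pancreas genes, which skin should also lack, were spread more widely. They summed to 117 to 149 FPKM in controls 1, 2 and 3, IMQ + NS replicate 3 and IMQ + BZLF replicates 1, 2 and 3. In the rest they summed to 2.07 to 36.4 FPKM. Because control replicate 2 stands apart, results against the controls are given with and without it.

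Most members were higher in IMQ + NS skin than in control skin, and the median mitotic gene by more than the median S phase gene, a difference between sets that was not tested. Against all 4 controls, 31 of the 42 members rose (limma, adjusted p under 0.05), 23 of 27 mitotic and 8 of 15 S phase members, while 29.0% of all genes tested were called higher. With a log2 fold change over 1 as well, 29 members were called (22 mitotic and 7 S phase), beside 11.4% of all genes. No member was called lower, and none was lower at an unadjusted p under 0.05. Fold changes on the log2(FPKM + 0.1) scale had a median of 1.87 in mitotic members and 0.94 in S phase members, beside 0.05 over all genes tested. In whole skin, more RNA of these genes per cell and more dividing cells cannot be told apart. With control replicate 2 in the group, no member had all its IMQ + NS values above all its control values, beside 23.7% of all genes. Without it, 41 members were called higher (27 mitotic and 14 S phase), beside 39.5% of all genes, and 40 with the fold rule, beside 14.4%. The same 41 then had groups that did not overlap, beside 39.9% of all genes, and the medians became 2.63 and 1.36. Since control replicate 2 was set aside with the values of these genes in view, the second set of counts is a description. Leaving out another sample lowered the first count: to 1 without control replicate 1 or 3, to 0 without control replicate 4, and, for IMQ + NS, to 9 (replicate 1), 8 (replicate 2), 5 (replicate 3) and 4 (replicate 4).

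**Figure D1:**
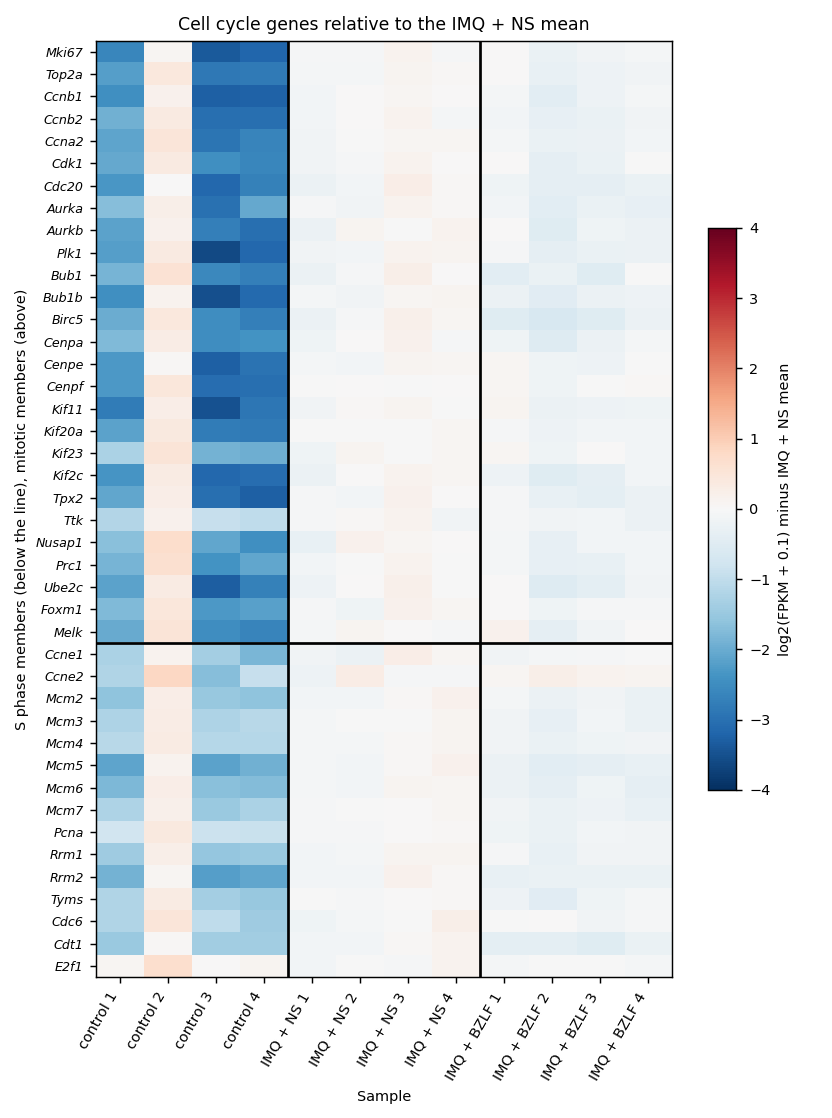
Each row is a member and each column a sample, and the colour gives log2(FPKM + 0.1) minus the mean of the 4 IMQ + NS samples (blue lower, red higher). Controls 1, 3 and 4 are blue in nearly every row, with the mitotic rows the deepest; control 2 is pale red, and E2f1, the bottom row, is pale in all samples except control 2.

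Mki67, whose protein coats mitotic chromosomes and is the usual stain for dividing cells, had the largest rise. It was at 3.55, 2.10 and 2.38 FPKM in controls 1, 3 and 4, at 23.7 FPKM in control 2, and at 21.5, 21.4, 24.7 and 21.5 FPKM in IMQ + NS. Control 2 lay inside the IMQ + NS range and the other controls far below it. The log2 fold change was 2.26 ± 0.67 (SE) against all 4 controls (limma, adjusted p = 0.019) and 3.04 ± 0.16 (SE) against the other 3. Top2a, the topoisomerase that untangles sister chromatids, was at 6.07, 3.75 and 3.84 FPKM in controls 1, 3 and 4, 37.4 in control 2 and 26.8, 26.3, 30.2 and 29.0 in IMQ + NS. Here control 2 was the highest of the 12 samples. Its log2 fold change was 1.87 ± 0.65 (SE) (limma, adjusted p = 0.036) and 2.63 ± 0.16 (SE) without control 2.

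The cyclins of G2 and mitosis and their kinase rose together, all 4 of 4. Ccnb1, cyclin B1, read 4.03, 2.30 and 2.31 FPKM in the 3 low controls, 25.5 in control 2 and 20.9, 23.2, 24.2 and 22.9 in IMQ + NS, a log2 fold change of 2.20 ± 0.68 (SE) (limma, adjusted p = 0.022). Ccna2, cyclin A2, read 4.35, 2.42 and 3.01 FPKM in controls 1, 3 and 4, 26.9 in control 2 and 17.4, 19.1, 20.4 and 20.1 in IMQ + NS, a log2 fold change of 1.80 ± 0.65 (SE) (limma, adjusted p = 0.042). In both genes, control 2 exceeded all 4 IMQ + NS samples. Cdk1, the kinase these cyclins activate, was at 2.50, 1.86 and 1.67 FPKM in controls 1, 3 and 4, 13.8 in control 2 and 9.65, 10.4, 11.7 and 10.8 in IMQ + NS, a log2 fold change of 1.68 ± 0.58 (SE) (limma, adjusted p = 0.036). Ccnb2 behaved alike, with a mean of 20.1 ± 1.52 FPKM (SD, n = 4) in IMQ + NS beside 3.34 ± 1.64 (SD, n = 3) in controls 1, 3 and 4.

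The Aurora, Polo and Melk kinases, 4 of 4, rose as well. Plk1, the Polo kinase of spindle assembly, had values of 2.58, 0.901 and 1.29 FPKM in controls 1, 3 and 4, 15.8 in control 2 and 11.1, 11.3, 13.5 and 13.2 in IMQ + NS, a log2 fold change of 2.15 ± 0.75 (SE) (limma, adjusted p = 0.036). Aurkb, the kinase of the chromosomal passenger complex, had 2.94, 1.92 and 1.57 FPKM in controls 1, 3 and 4, 15.2 in control 2 and 11.3, 14.4, 13.3 and 14.8 in IMQ + NS, a log2 fold change of 1.93 ± 0.61 (SE) (limma, adjusted p = 0.025). By the ratio of the highest to the lowest of the 3 low controls, no member varied more than Plk1, with control 1 the highest of them, and for both genes control 2 was above every IMQ + NS sample. The other 2 kinases, Aurka and Melk, had log2 fold changes of 1.62 and 1.66. Foxm1, the transcription factor that turns on many of these genes in G2, was at 1.99, 1.36 and 1.48 FPKM in controls 1, 3 and 4, 9.76 in control 2 and 6.78, 6.26, 7.89 and 7.39 in IMQ + NS. Its log2 fold change was 1.45 ± 0.55 (SE) (limma, adjusted p = 0.049), near the threshold.

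Checkpoint, centromere, motor and spindle genes rose in part. Bub1, a checkpoint kinase, had 1.04, 0.595 and 0.528 FPKM in controls 1, 3 and 4, 6.20 in control 2 and 3.45, 3.98, 4.87 and 4.17 in IMQ + NS. Control 2 was above every IMQ + NS sample, and the log2 fold change of 1.65 ± 0.65 (SE) did not pass the test (limma, adjusted p = 0.057), while Bub1b (2.23) and Ttk (0.74) did. Cenpf, a kinetochore protein, had 0.573, 0.299 and 0.306 FPKM in controls 1, 3 and 4, 4.34 in control 2 and 3.15, 3.18, 3.17 and 3.2 in IMQ + NS, a log2 fold change of 1.97 ± 0.69 (SE) (limma, adjusted p = 0.037). No member differed more between control 2 and the other controls (11.0 times their mean), and none varied less within IMQ + NS relative to its mean (3.18 ± 0.0211 FPKM, SD, n = 4). Kif11, the motor that pushes spindle poles apart, had 1.47, 0.860 and 1.36 FPKM in controls 1, 3 and 4, 12.9 in control 2 and 9.62, 11.0, 11.6 and 10.6 in IMQ + NS, a log2 fold change of 2.22 ± 0.71 (SE) (limma, adjusted p = 0.026). Without control 2 its value of 3.05 was the largest of all members. Ube2c, the enzyme that tags cyclins for destruction, was the most abundant mitotic member, at 10.6, 4.75 and 7.22 FPKM in controls 1, 3 and 4, 59.8 in control 2 and 41.2, 47.4, 54.7 and 47.1 in IMQ + NS, a log2 fold change of 1.95 ± 0.67 (SE) (limma, adjusted p = 0.034). The passenger and centromere genes Birc5, Cenpa and Cenpe, the motors Kif20a and Kif2c, the spindle protein Tpx2 and Cdc20 also rose, with log2 fold changes of 1.59 to 2.11. The motor Kif23 (1.15) and the spindle proteins Nusap1 (1.38) and Prc1 (1.42) did not pass, at adjusted p-values of 0.067 to 0.081 (limma).

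**Figure D2:**
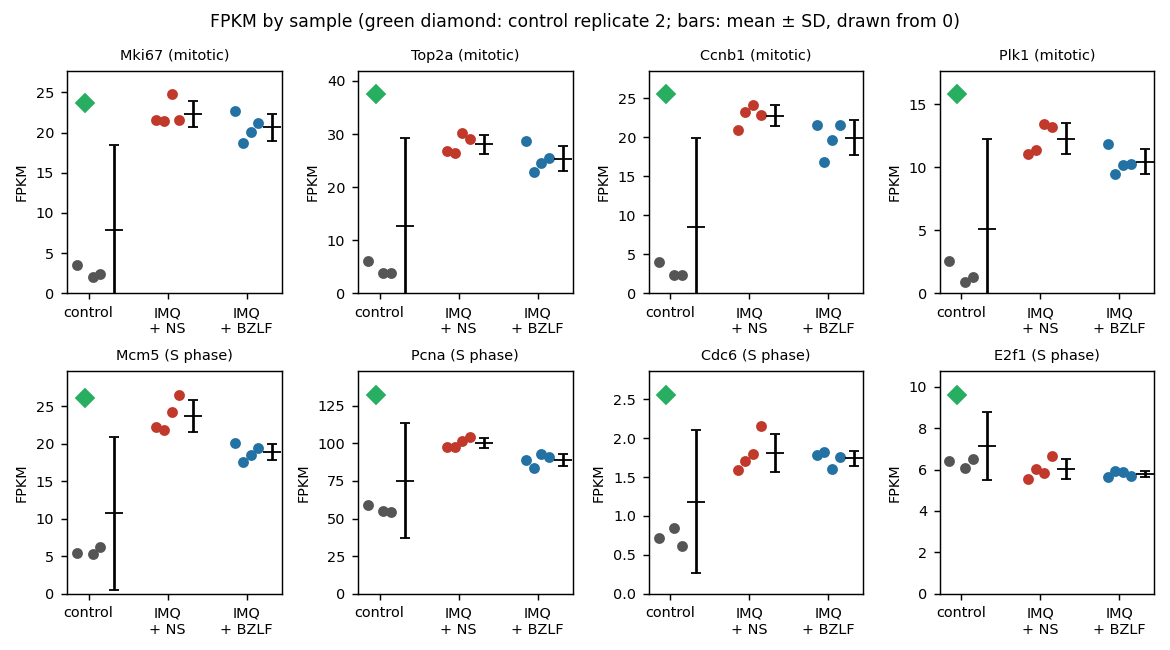
FPKM of 4 mitotic (top) and 4 S phase members (bottom) in each sample, with the mean ± SD of each group of 4; the green diamond is control replicate 2, and error bars that would reach below 0 start at 0. Mki67, Top2a, Ccnb1 and Plk1 separate controls 1, 3 and 4 from the treated samples by more than Mcm5, Pcna and Cdc6 do, and E2f1 does not separate them.

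In S phase members the median estimate was smaller and a smaller share passed. Of the helicase genes, 4 of 6 were called higher. Mcm2 read 5.93, 6.31 and 5.94 FPKM in controls 1, 3 and 4, 21.7 in control 2 and 16.9, 16.8, 18.8 and 20.6 in IMQ + NS, a log2 fold change of 1.11 ± 0.39 (SE) (limma, adjusted p = 0.037). Mcm5 had the largest rise of the 6, from 5.46, 5.28 and 6.22 FPKM in controls 1, 3 and 4, with 26.0 in control 2, to 22.2, 21.8, 24.2 and 26.5 in IMQ + NS, a log2 fold change of 1.5 ± 0.46 (SE) (limma, adjusted p = 0.023). The 3 low controls lay within a narrow range in both genes, and control 2 lay above the IMQ + NS range in Mcm2 and inside it in Mcm5. Mcm3 (0.82) and Mcm4 (0.76) did not pass, at adjusted p-values of 0.056 and 0.062 (limma). Rrm2, the regulated subunit of ribonucleotide reductase, had the largest rise of any S phase member, from 7.71, 6.13 and 6.70 FPKM in controls 1, 3 and 4, with 30.6 in control 2, to 26.6, 26.8, 32.7 and 29.7 in IMQ + NS, a log2 fold change of 1.53 ± 0.46 (SE) (limma, adjusted p = 0.020). Its partner Rrm1 rose by 1.06, and Tyms, thymidylate synthase, had 0.94 and did not pass (limma, adjusted p = 0.054).

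Pcna, the sliding clamp of DNA polymerases, was the most abundant member, at 59.0, 55.3 and 54.4 FPKM in controls 1, 3 and 4, 132 in control 2 and 97.7, 97.4, 102 and 104 in IMQ + NS. Its estimate was the smallest above 0, a log2 fold change of 0.53 ± 0.26 (SE) that did not pass (limma, adjusted p = 0.12). The licensing factors split by the test: Cdt1 had 4.11, 4.42 and 4.46 FPKM in controls 1, 3 and 4, 12 in control 2 and 10.9, 10.9, 12.2 and 12.9 in IMQ + NS, a log2 fold change of 1.05 ± 0.31 (SE) (limma, adjusted p = 0.020). Cdc6 had 0.721, 0.844 and 0.613 FPKM in controls 1, 3 and 4, 2.56 in control 2 and 1.59, 1.71, 1.80 and 2.16 in IMQ + NS, a log2 fold change of 0.79 ± 0.38 (SE) (limma, adjusted p = 0.11). The difference between these 2 genes was not tested.

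Of the E cyclins, Ccne1 rose and Ccne2 did not pass. Ccne1 was at 2.06, 1.90 and 1.37 FPKM in controls 1, 3 and 4, 5.54 in control 2 and 4.62, 4.32, 6.14 and 5.38 in IMQ + NS, a log2 fold change of 1.08 ± 0.37 (SE) (limma, adjusted p = 0.034). Ccne2 was at 1.59, 1.10 and 1.94 FPKM in controls 1, 3 and 4, 6.91 in control 2 and 3.31, 4.71, 3.65 and 3.70 in IMQ + NS, a log2 fold change of 0.75 ± 0.48 (SE) (limma, adjusted p = 0.21). E2f1 was the exception among the 42: it read 6.39, 6.09 and 6.51 FPKM in controls 1, 3 and 4, 9.61 in control 2 and 5.56, 6.01, 5.85 and 6.66 in IMQ + NS. Apart from control 2, the ranges of the groups overlapped, and the log2 fold change was -0.22 ± 0.15 (SE) (limma, adjusted p = 0.24, 95% interval -0.57 to 0.12), or -0.07 ± 0.08 (SE) without control 2. Under quantile normalization, E2f1 was called lower.

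S phase and mitotic members were compared sample by sample, as a description, by each member's FPKM as a percentage of its IMQ + NS mean. In controls 1, 3 and 4 the median S phase member stood at 40.3%, 37.1% and 35.3%, and the median mitotic member at 22.6%, 12.6% and 13.7%. The mitotic set was thus further below the IMQ + NS level in each of these 3 samples. Control 2 stood at 119.6% for S phase and 128.6% for mitotic members, above the IMQ + NS samples, which ran from 93.0% to 106.8% and from 91.8% to 109.4%. Summed FPKM of S phase members over that of mitotic members was 1.43, 2.28 and 2.12 in controls 1, 3 and 4. The same ratio was 0.735 in control 2, 0.706 to 0.788 in IMQ + NS and 0.705 to 0.809 in IMQ + BZLF. By this ratio, control 2 lay inside the range of the IMQ + NS samples, and IMQ + NS and IMQ + BZLF overlapped. Abundant genes weigh most in the sums: Pcna alone gave 132 of the 375 FPKM of S phase members in control 2. The place of control 2 by this ratio thus depends in part on that gene. Without control 2, the smallest fold change of a mitotic member was that of Ttk (1.04) and the largest of an S phase member that of Rrm2 (2.07), so the sets overlapped gene by gene.

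**Figure D3:**
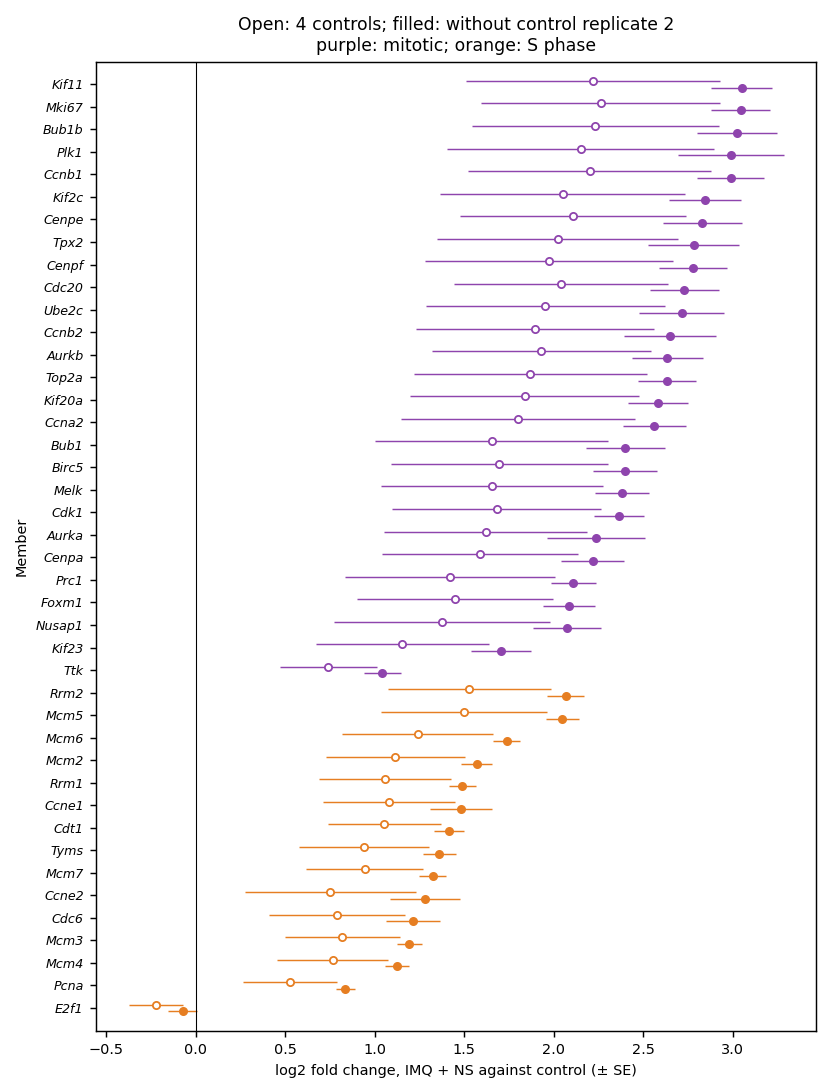
Log2 fold change ± SE of each member in IMQ + NS against control, on the log2(FPKM + 0.1) scale, with all 4 controls (open) and without control replicate 2 (filled), mitotic members in purple and S phase members in orange. Leaving out control 2 moved the fold changes to the right and narrowed their errors; E2f1 stayed near 0, at -0.22 and -0.07.

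Control replicate 2 was the highest of the 4 controls in all 42 members, beside 50.6% of all genes tested. It exceeded 2 times the mean of the other 3 controls in 41 members, beside 9.79% of all genes, and by 1.52 times in E2f1. The ratio to the other controls had a median of 3.31 in S phase members (1.52 to 4.60) and 7.98 in mitotic members (2.36 to 11.0). It was above every IMQ + NS sample in 35 members (24 mitotic and 11 S phase), beside 7201 of the 15288 genes tested. It was within their range in the other 7 members, beside 3679 of the genes tested. As a single sample it allows no test. Markers of growing hair moved with it: all 14 hair matrix and shaft genes and all 7 inner root sheath genes exceeded 2 times the mean of the other controls. The first list summed to 423 FPKM in control 2 and to 17.5 to 41.3 FPKM in the other controls. The second summed to 1959 FPKM and to 19.3 to 57.5 FPKM. None of these 21 genes was at 0 in any sample. In IMQ + NS the sums were 5476 to 7989 and 8180 to 10397 FPKM, so control 2 lay between the other controls and IMQ + NS for hair genes, with Shh as the exception (13.1 FPKM, beside 4.59, 5.29, 3.76 and 4.55 in IMQ + NS), but at or above IMQ + NS for most cell cycle genes. The 4 keratins of hyperproliferating epidermis (Krt6a, Krt6b, Krt16 and Krt17) summed to 616 FPKM in control 2, to 190 to 251 in the other controls and to 2344 to 4207 in IMQ + NS. Skeletal muscle genes were lower in control 2, at 2653 FPKM beside 6237 to 6465 in the other controls. Suprabasal (967 beside 1675 to 2529), adipocyte (565 beside 843 to 1407) and fibroblast genes (8627 beside 10059 to 12109) also summed lowest there. So did endothelial, T cell and macrophage genes. Basal epidermal, sebaceous, B cell and neutrophil genes summed within the range of the other controls. The part of hair, muscle, seminal vesicle or other tissue RNA in the high values of control 2 was not tested.

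**Figure D4:**
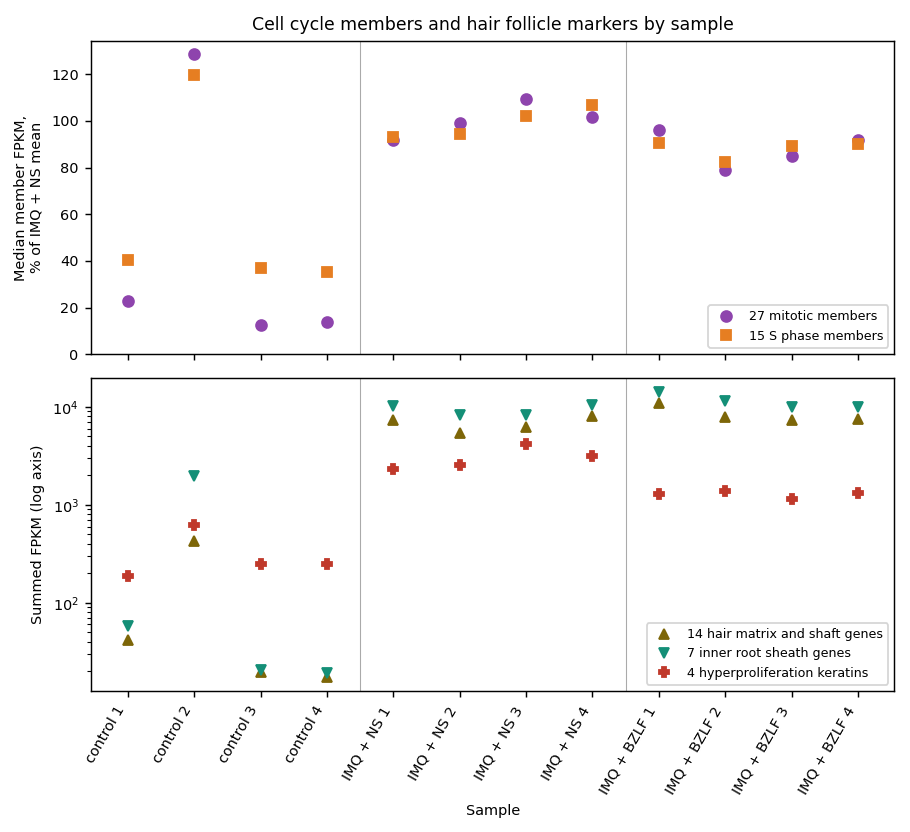
Above, the median member of each set in each sample as a percentage of its IMQ + NS mean; below, summed FPKM of hair matrix and shaft, inner root sheath and hyperproliferation keratin genes, on a log axis. Control 2 reaches 119.6% (S phase) and 128.6% (mitotic) above, while its hair genes below lie between those of the other controls and those of the IMQ samples.

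The same marker lists moved with IMQ in the other samples. Against all 4 controls, 13 of 14 hair matrix and shaft genes, 7 of 7 inner root sheath genes, 4 of 4 hyperproliferation keratins and 6 of 6 neutrophil genes were called higher in IMQ + NS, and 4 of 4 skeletal muscle genes were called lower, beside 29.0% of all genes higher and 27.1% lower. Ly6g, a neutrophil marker, was listed at 0 in controls 2 and 4 and IMQ + BZLF replicate 3, and no other gene of these 5 lists was at 0 in any sample. The neutrophil genes were Ly6g, Csf3r, Cxcr2, Mmp8, S100a8 and S100a9. They summed to 27.7 to 46.7 FPKM in controls and to 3121 to 9869 FPKM in IMQ + NS, and muscle genes to 530 to 1207 FPKM in IMQ + NS. Whether the first sum follows the number of neutrophils was not tested. The part of these lists in the rise of the cell cycle genes was not tested either.

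With BZLF, the members stayed close to the IMQ + NS level, with small differences that were nearly all downward. In IMQ + BZLF against IMQ + NS, 5 of the 42 members fell (limma, adjusted p under 0.05), beside 5.17% of all genes tested: Cdt1, Mcm5, Mcm6 and Mcm7 of the S phase set and Birc5 of the mitotic set. No member rose by the limma test, beside 1.28% of all genes, and none was higher at an unadjusted p under 0.05. None of the 5 changed by more than 1 on the log2 scale. As deposited, the estimate was below 0 for 41 of 42 members. The median was -0.19 in S phase and -0.20 in mitotic members, beside -0.02 over all genes. Under median ratio scaling 37 of 42 were below 0, with medians of -0.13 (S phase) and -0.14 (mitotic). Under quantile normalization 37 of 42 were below 0 too, with medians of -0.15 in both sets. Median ratio scaling moved the median of all genes to 0.03. All 4 IMQ + BZLF values lay below all 4 IMQ + NS values in 13 members, 9 S phase and 4 mitotic, beside 10.9% of all genes. Under median ratio scaling this held for 4 members, all S phase, beside 7.32% of all genes, and under quantile normalization for 10 (9 S phase and 1 mitotic), beside 7.98%. It held for 23 members without IMQ + BZLF replicate 1, beside 2335 of the 15288 genes tested, and for 20 without IMQ + NS replicate 1, beside 2218. Leaving out any other sample gave 13 or 14 members, beside 1861 to 2312 of the genes tested. The count of 5 became 4 when the first sample of either group was dropped, and 2 when IMQ + BZLF sample 4 or IMQ + NS sample 2 was. It became 0 when sample 2 or 3 of IMQ + BZLF, or 3 or 4 of IMQ + NS, was dropped.

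The 5 genes were the following. Cdt1 was at 10.9, 10.9, 12.2 and 12.9 FPKM in IMQ + NS and at 8.88, 8.93, 8.29 and 9.67 in IMQ + BZLF, 76.1% of the IMQ + NS mean. Its log2 fold change was -0.39 ± 0.08 (SE) (limma, adjusted p = 0.020). Birc5, survivin, the passenger protein that also restrains cell death, was at 23.7, 27.1, 32.2 and 29.6 FPKM in IMQ + NS and at 20.1, 18.0, 19.8 and 23.7 in IMQ + BZLF. At -0.46 ± 0.11 (SE) (limma, adjusted p = 0.040) it had the largest fall of the 42, although its lowest IMQ + NS and highest IMQ + BZLF values nearly met. The other 3 were helicase subunits. Mcm5 went from 22.2, 21.8, 24.2 and 26.5 to 20.1, 17.6, 18.5 and 19.4 FPKM (-0.32 ± 0.07 SE, limma adjusted p = 0.037). Mcm6 went from 15.5, 15, 17.3 and 17.2 to 13.7, 12.5, 14.3 and 12.7 FPKM (-0.28 ± 0.07 SE, limma adjusted p = 0.048). Mcm7 went from 24.4, 25.1, 25.5 and 26.8 to 23.0, 21.1, 22.1 and 20.6 FPKM (-0.23 ± 0.05 SE, limma adjusted p = 0.042). In all 5 the groups did not overlap. The other helicase genes had estimates of -0.18 (Mcm2), -0.21 (Mcm3) and -0.19 (Mcm4) and did not pass.

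Other S phase genes did not pass, Rrm2 by the least. Rrm2 was at 23.4, 23.8, 24.0 and 24.1 FPKM in IMQ + BZLF, below every IMQ + NS sample, with a log2 fold change of -0.28 ± 0.07 (SE) (limma, adjusted p = 0.0503). Pcna was at 89.0, 83.9, 92.7 and 90.9 FPKM, also below every IMQ + NS sample, with -0.17 ± 0.05 (SE) (limma, adjusted p = 0.084). Mcm2 was at 17.2, 15.4, 16.3 and 15 FPKM in IMQ + BZLF, and 1 of these values lay inside the IMQ + NS range. Cdc6 was at 1.79, 1.83, 1.61 and 1.75 FPKM, Ccne1 at 4.64, 4.83, 4.95 and 4.98 FPKM and E2f1 at 5.63, 5.93, 5.88 and 5.68 FPKM, all overlapping IMQ + NS, with log2 fold changes of -0.05, -0.06 and -0.06. Their 95% intervals were -0.30 to 0.21, -0.31 to 0.18 and -0.22 to 0.11. Ccne2 was the only member with a higher mean, at 4.05, 4.50, 4.17 and 4.15 FPKM and 0.14 ± 0.11 (SE) (limma, adjusted p = 0.48).

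Of the mitotic members, Birc5 alone passed this test. Mki67 was at 22.6, 18.7, 20.1 and 21.2 FPKM in IMQ + BZLF, 92.6% of the IMQ + NS mean, with overlapping groups and a log2 fold change of -0.11 ± 0.07 (SE) (limma, adjusted p = 0.42, 95% interval -0.28 to 0.06). Top2a was at 28.6, 22.9, 24.5 and 25.4 FPKM (-0.15 ± 0.08 SE), Ccnb1 at 21.6, 16.9, 19.7 and 21.6 FPKM (-0.20 ± 0.09 SE) and Ccna2 at 18.2, 16.1, 16.4 and 17.8 FPKM (-0.17 ± 0.07 SE). None of the 3 passed (limma, adjusted p of 0.29, 0.22 and 0.20). Cdk1 read 10.8, 8.28, 8.82 and 10.5 FPKM, Plk1 11.8, 9.51, 10.2 and 10.3 FPKM and Aurkb 13.5, 9.53, 12 and 11.3 FPKM, with replicate 2 the lowest of the 4 in each. Their log2 fold changes were -0.15, -0.23 and -0.22. Bub1 read 3.06, 3.36, 2.87 and 4.07 FPKM, Ube2c 48.1, 32.8, 36.4 and 43.0 FPKM and Kif11 11.5, 9.16, 9.26 and 9.52 FPKM, with -0.30, -0.26 and -0.12. Foxm1, at 7.21, 6.20, 6.79 and 6.84 FPKM, had -0.06 ± 0.09 (SE). Cenpf, at 3.33, 2.78, 3.13 and 3.26 FPKM, had the estimate nearest to 0, -0.03 ± 0.08 (SE). Cdc20, Kif2c, Aurka and Bub1b had estimates of -0.30 to -0.28, and none passed. IMQ + BZLF replicate 2 had the lowest median level of both sets in its group, 82.3% for S phase and 79.0% for mitotic members, and was also the one with seminal vesicle RNA, whose part in these levels was not tested.

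**Figure D5:**
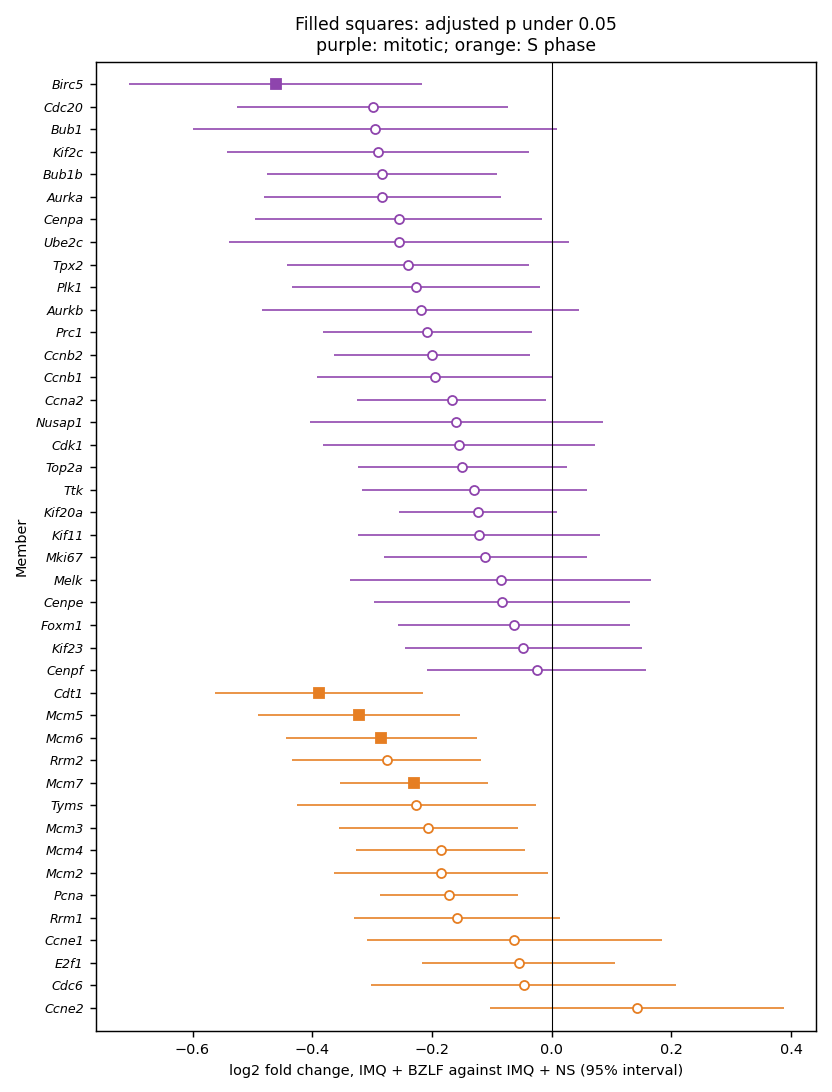
Log2 fold change of each member in IMQ + BZLF against IMQ + NS, with its 95% interval, on the log2(FPKM + 0.1) scale; filled squares mark the 5 members with adjusted p under 0.05, mitotic members are purple and S phase members orange. All points but Ccne2 lie to the left of 0, between -0.46 (Birc5) and -0.03 (Cenpf), and most intervals reach near or past 0.

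By the median member in each sample, S phase members stood in IMQ + BZLF at 82.3% to 90.4% and mitotic members at 79.0% to 95.9% of the IMQ + NS level. Over the same samples the hyperproliferation keratins summed to 1140 to 1392 FPKM beside 2344 to 4207 in IMQ + NS, with 3 of 4 called lower, and neutrophil genes to 61.7 to 82.5 FPKM beside 3121 to 9869, with 6 of 6 called lower. Basal epidermal genes summed to 1443 to 2112 FPKM beside 3134 to 5289, with 5 of 6 called lower, beside 5.17% of all genes. Hair matrix and shaft genes summed to 7303 to 11076 FPKM beside 5476 to 7989, with 0 of 14 called, 0 of them at an unadjusted p under 0.05, and inner root sheath genes to 10100 to 14267 FPKM beside 8180 to 10397, with 0 of 7 called, 3 of them higher at an unadjusted p under 0.05. The part of any of these in the levels of the cell cycle genes was not tested.

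The third comparison set IMQ + BZLF skin against the controls. This comparison shares its controls with the first and its treated samples with the second, so it is not independent of either. Against all 4 controls, 11 of the 42 members were called higher (limma, adjusted p under 0.05), 9 of 27 mitotic and 2 of 15 S phase members. Over all genes 23.8% were called higher, a share close to that of the 42 and above that of the S phase members. All 11 also passed the fold rule, beside 9.65% of all genes. No member was called lower, or was lower at an unadjusted p under 0.05. The 11 were Mki67, Ccnb1, Kif11, Cenpe, Bub1b, Cenpf, Cdc20, Kif20a and Aurkb, and Rrm2 and Ccne1. Medians of the log2 fold change were 1.70 in mitotic and 0.74 in S phase members, beside -0.02 over all genes. Mki67 had the largest, 2.15 ± 0.67 (SE) (limma, adjusted p = 0.024). With control 2 in the group, no member had all its IMQ + BZLF values above all controls, beside 19.4% of all genes. Without control 2, 41 members were called higher, beside 35.1%, 37 of them with the fold rule, beside 12.7%, and 41 did not overlap, beside 35.9%, with medians of 2.43 and 1.17. The count of 11 became 0 on dropping control 1, 3 or 4, or treated sample 1 or 4, and 1 on dropping treated sample 2 or 3. E2f1 alone lay the other way, with every IMQ + BZLF value below every control (28.1% of all genes did so) and a log2 fold change of -0.28 ± 0.15 (SE) that did not pass (limma, adjusted p = 0.14).

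Most other genes of the same processes were higher with IMQ too, again with more called once control 2 was left out. Of 54 further mitosis genes, 33 were called higher in IMQ + NS against control, beside 29.0% of all genes (53 without control 2, beside 39.5%), and none lower, with a median of 1.5. Mybl2, the B-Myb transcription factor of G2 genes, had the largest rise (2.47 ± 0.60 SE, limma adjusted p = 0.0078), followed by Cdc25c, the phosphatase that activates Cdk1 (2.16 ± 0.72 SE, limma adjusted p = 0.030). Of 50 further DNA replication genes, 23 were called higher (49 without control 2) and none lower, with a median of 0.90. Ticrr, an origin-firing factor, and Mcm10, a replication fork factor, led them (1.99 and 1.97). None of either list was lower at an unadjusted p under 0.05. With BZLF, 1 of the 54 fell against IMQ + NS, Cdc25b, the related phosphatase (-0.37 ± 0.06 SE, limma adjusted p = 0.012), and 2 of the 50 fell: Rfc2, a subunit of the clamp loader (-0.23), and Gmnn, geminin, the inhibitor of Cdt1 (-0.22). For all genes the share called lower was 5.17%. Medians were -0.09 and -0.11. None of the 104 was called higher, or was higher at an unadjusted p under 0.05. In IMQ + BZLF against control, 19 of 54 and 14 of 50 were called higher, beside 23.8% of all genes, a share close to that of the 50, with Mybl2 (2.35), Cdc25c (2.08), E2f2 (2.0) and Ticrr (1.84) leading. Control 2 was the highest control in all 54 and all 50.

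The further G1 genes are the D cyclins Ccnd1, Ccnd2 and Ccnd3 and the kinases Cdk2, Cdk4 and Cdk6. Against control, none of the 6 was called higher in IMQ + NS with all 4 controls, and 1 was at an unadjusted p under 0.05. Ccnd3, cyclin D3, was called lower, at 28.7, 31.3, 28.8 and 31.5 FPKM beside 49.5, 49.0, 45.4 and 39.4 in the controls (-0.60 ± 0.09 SE, limma adjusted p = 5.8e-04), and control 2 lay with the other controls. Ccnd1 was at 47.0, 46.9, 41.2 and 48.8 FPKM beside 28.1, 62.1, 19.8 and 19.6 (0.67 ± 0.33 SE, limma adjusted p = 0.11), Ccnd2 had 0.12, Cdk2 0.64, Cdk4 0.50 and Cdk6 0.25. Without control 2, Ccnd1, Cdk2, Cdk4 and Cdk6 passed as well, 4 of 6 higher beside 39.5% of all genes. With BZLF, Ccnd2 was the one of the 6 called (2 were higher and none lower at an unadjusted p under 0.05), higher than in IMQ + NS at 36.1, 36.0, 40.3 and 36.9 FPKM beside 31.5, 32.1, 27.1 and 31.9 (0.29 ± 0.07 SE, limma adjusted p = 0.043), while Ccnd1 was 0.19, Ccnd3 -0.10, Cdk2 0.14, Cdk4 0.02 and Cdk6 -0.20. In IMQ + BZLF against control, Ccnd3 was again lower (-0.70), and none of the 6 was called higher, with 3 at an unadjusted p under 0.05.

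Among 10 CDK inhibitors and pocket proteins, which brake the cycle, 5 were called higher and 2 lower in IMQ + NS against control, beside 29.0% and 27.1% of all genes. Cdkn1a, p21, rose most, from 42.9, 59.5, 54.1 and 56.8 FPKM in the controls to 126, 117, 119 and 134 (1.22 ± 0.11 SE, limma adjusted p = 4.3e-05), with groups that did not overlap and control 2 among the other controls. Rbl1, p107, rose by 1.04, Rb1 by 0.57, Cdkn2a by 0.44 and Cdkn2b by 0.38. Cdkn2c, p18, fell (-0.85), from 67.1, 54.4, 37.1 and 42.1 FPKM in the controls to 26.0, 30.8, 23.8 and 27.9, and Rbl2, p130, fell (-0.35). Cdkn1b (0.09), Cdkn1c (0.28) and Cdkn2d (-0.12) did not pass. Of the 10, Rbl1 shared the high value of control 2, at 2.78, 7.92, 2.50 and 2.79 FPKM in the 4 controls. With BZLF none of the 10 was called against IMQ + NS, with 1 higher and 2 lower at an unadjusted p under 0.05. Cdkn2a had the largest estimate, -1.12 ± 0.31 (SE), at 0.476, 0.641, 1.20 and 1.59 FPKM beside 2.30, 2.16, 1.77 and 1.97 (limma, adjusted p = 0.067). Against control, where 23.8% of all genes were called higher and 29.2% lower, Cdkn1a (1.38), Cdkn1c (0.66) and Rb1 (0.52) were higher in IMQ + BZLF, and Cdkn2c (-0.79) and Rbl2 (-0.46) were lower.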

How the data were processed

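The deposited table holds 1 FPKM value per gene and sample, made by the authors and not log transformed. The submitters' processing notes name fastp, HISAT2, HTSeq, R 3.2.0 and the mm10 build, whereas the study's methods name Bowtie2 and eXpress, and the sources also differ on the RNA kits, so the pipeline behind the values is uncertain. Columns were matched to samples by name. The table's "IMQ_NS" columns were taken as the samples titled "MQ_NS". FPKM keeps the share of each gene in its library and not the depth: only 21.4% of 34152 low values lay within 0.05 of a whole multiple of a read's worth, so no reads were recovered and no count test was run.

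Genes with a mean of at least 0.1 FPKM over the 12 samples were tested (15288 of 18505). Each pair of groups was fitted with limma 3.58.1 in R 4.3.3 on log2(FPKM + 0.1) with a variance trend, 4 against 4 samples, with Benjamini-Hochberg adjustment over all genes tested. A gene was called at an adjusted p under 0.05, with a second count that also needed a log2 fold change over 1. The constant understates the change of low genes. The fit was tested on simulated data that gave both groups the same spread. This does not cover a group with a sample set apart like control 2. No 2 samples had identical values. An exact permutation test of 4 against 4 samples could not go below 0.0286, so it was not used across genes. Motifs were searched and figures drawn with matplotlib 3.10.9 and pandas 2.3.3, under Python 3.11.15. Genes that share sequence with near-identical copies elsewhere in the genome depend on a read assignment that was not tested.

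The members, the lists of other cell cycle genes and the marker lists were chosen with earlier results of these data known. All members are named. Those given in every sample were chosen by a fixed list, with the largest rise and fall of each set in each comparison. Birc5 came in as the largest mitotic fall with BZLF, and Mcm6 and Mcm7 were added after their values were seen. Of further cell cycle genes, all G1 genes and inhibitors are named, and the 2 of each other list with the largest called change in each direction. Alternatives were another constant (0.01 or 1), no filter or a mean of at least 1 FPKM, median ratio scaling, quantile normalization, all 12 samples in one fit, the replicate number as a block, and leaving out each sample. Same-numbered samples of different groups did not deviate together (r of -0.15 to 0.26, beside -0.24 to 0.27 for other pairs), so the numbers were not taken to pair them.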

Additional observations from a re-analysis of the deposited data

Results flagged for a closer look

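Control replicate 2 stood apart from the other 3 controls in 41 of the 42 members. In each, the gap between it and the nearest control took up more of the range of the 4 controls than the 95% critical value of Dixon's ratio allows for 4 samples. Aurka narrowly missed this criterion, although control 2, at 8.68 FPKM, was 5.42 times the mean of the others, and E2f1 met it at 1.52 times. This criterion was applied to 126 groups of 4 (42 genes in 3 groups), and it marked 46 in all. Control 2 was known from earlier results to differ, and its marks all come from that single sample, so they are a description and not a test. The FPKM values of control 2 among mitotic members were 23.7 for Mki67, 37.4 for Top2a, 25.5 for Ccnb1, 25.8 for Ccnb2, 26.9 for Ccna2 and 13.8 for Cdk1. They were 15.2 for Aurkb, 15.8 for Plk1, 6.20 for Bub1, 13.4 for Bub1b, 6.03 for Ttk, 9.76 for Foxm1 and 7.81 for Melk, and 31.2 for Cdc20, 37.1 for Birc5, 42.7 for Cenpa, 3.65 for Cenpe, 4.34 for Cenpf and 59.8 for Ube2c. Motors and spindle proteins had 12.9 for Kif11, 12 for Kif20a, 11.4 for Kif23, 7.05 for Kif2c, 16.1 for Tpx2, 14.5 for Nusap1 and 21.2 for Prc1. In the S phase set the values were 21.7 for Mcm2, 21.7 for Mcm3, 19.8 for Mcm4, 26.0 for Mcm5, 19.4 for Mcm6 and 29.2 for Mcm7. The remaining S phase members had 5.54 for Ccne1, 6.91 for Ccne2, 132 for Pcna, 30.3 for Rrm1, 30.6 for Rrm2, 7.19 for Tyms, 2.56 for Cdc6, 12 for Cdt1 and 9.61 for E2f1.

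The same criterion marked 5 values in the IMQ groups. In IMQ + NS, Mki67 was high in replicate 3 (24.7 FPKM) and Kif20a in replicate 4 (9.56 FPKM). In IMQ + BZLF, Kif11 was high in replicate 1 (11.5 FPKM), and Bub1b (8.75 FPKM) and Nusap1 (6.92 FPKM) were low in replicate 2. If the groups were independent, 1 in 20 would be marked by chance. Genes measured in the same samples are not independent groups, so this rate is no test of the marks.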

How the results depend on the processing

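In IMQ + NS against control, the count of 31 members called higher became 10 with no filter on low values, and 0 to 41 when each sample was left out (0 without control 4, 41 without control 2). Quantile normalization called 1 member lower, E2f1, in that comparison and 1, again E2f1, in IMQ + BZLF against control. In IMQ + BZLF against control, the count of 11 became 2 with no filter, 26 under median ratio scaling, 30 with all 12 samples in one fit, and 0 to 41 with a sample left out (0 without control 1, 3 or 4 or IMQ + BZLF 1 or 4, 41 without control 2). In IMQ + BZLF against IMQ + NS, the count of 5 members called lower became 2 with no filter, 1 under median ratio scaling, 2 under quantile normalization, 3 under the replicate block, 0 with all 12 samples in one fit, 0 with a log2 fold change over 1, and 0 to 4 with a sample left out (0 without IMQ + BZLF 2 or 3 or IMQ + NS 3 or 4). The cause was not tested in any of these.

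The estimates of 4 members in that comparison turned from below to just above 0 under median ratio scaling and quantile normalization: Cenpf (0.029 and 0.015), Kif23 (0.0078 and 0.0012), Cdc6 (0.0065 and 0.021) and E2f1 (0.00022 and 0.0022). Leaving out a sample moved Cenpf between -0.056 and 0.027, Ccne1 between -0.14 and 0.028, Cdc6 between -0.10 and 0.036 and Melk between -0.17 and 0.0058. No other member changed direction under any alternative. The replicate block gave 29 and 11 members called higher against control for IMQ + NS and IMQ + BZLF. The constants of 0.01 and 1 and the filter at a mean of 1 FPKM kept these counts within 1.5 times. Precision is limited by 4 samples a group, with 1 control apart from the rest, and by FPKM values whose reads per gene are unknown.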

Other observations

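Other cell types of the skin moved as well, as whole lists against all 4 controls. In IMQ + NS, 4 of 5 fibroblast genes, 3 of 4 adipocyte genes, 3 of 4 endothelial genes and 5 of 6 macrophage genes were called lower (limma, adjusted p under 0.05), with 0, 0, 0 and 1 called higher, beside 27.1% of all genes lower and 29.0% higher. Basal epidermal genes had 5 of 6 called higher, suprabasal genes 2 of 4 higher and 1 lower, and sebaceous genes 1 of 4 higher and 2 lower. T cell genes had 1 of 5 tested called higher and 1 lower, and B cell genes 1 of 2 tested called higher. In IMQ + BZLF against control, 4 of 5 fibroblast, 3 of 4 adipocyte, 4 of 4 endothelial, 6 of 6 macrophage and 4 of 5 T cell genes were called lower, beside 29.2% of all genes. Against IMQ + NS, BZLF left 0 fibroblast, adipocyte, endothelial, sebaceous, suprabasal and T cell genes called, with 2, 1, 1, 0, 0 and 0 higher and 0, 0, 0, 0, 1 and 1 lower at an unadjusted p under 0.05. There, 2 of 6 macrophage genes and 1 of 2 B cell genes were called lower, beside 5.17% of all genes. Pancreas genes, which skin should lack, summed to 2.07 to 149 FPKM over the 12 samples, with 0 of 5 called in any comparison, and 0 of 5 seminal vesicle genes were called. None of these 10 was past an unadjusted p of 0.05.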
